A study of Mus musculus with 12 samples.

Results

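A set of 9 genes of the neural crest and its pigment, glial and autonomic derivatives was followed across 12 whole mouse embryos at E10.5, midway through gestation: Sox10, Pax3, Foxd3, Tfap2a, Ets1, Ednrb, Kit, Mitf and Dct. All 9 were present on the array, among 18193 genes, through the 22 probe sets, of 45101, that the platform annotation assigns to 1 of these symbols alone. Each gene was read from its brightest probe set, by the mean of the 12 arrays. All 9 passed the filter on dim probe sets, as did 13501 genes in all. The genes were chosen by name for their place in the crest lineage, with earlier results of these arrays known, and no expression value entered the choice.

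The arrays fall into 4 genotypes with 3 embryos each. These are wild type (wt), embryos with 2 copies of the acd allele at the Acd gene (Acdacd/acd, called acd), embryos without p53 (p53-/-, called p53), and both together (Acdacd/acd, p53-/-, called double). Acd encodes TPP1, a shelterin protein that protects chromosome ends, and p53 is the transcription factor that arrests or kills cells with damaged DNA. The labels call the replicates biological, name no driver line or tissue restriction, describe neither allele and give neither strain nor litter, so the p-values measure the spread between these embryos. The study asked which part of the acd phenotype depends on p53.

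Values are log2 expression values made by RMA, a method that brings all arrays to near-equal distributions. Array medians over all probe sets lay between 5.32 and 5.40. Acd itself, from 1 probe set, measured 8.988 to 8.999 in wt and 8.84 to 9.05 in p53, against 8.22 to 8.31 in acd and 8.24 to 8.44 in double arrays. The arrays of double replicates 1 and 2 were set apart: their median correlation with the rest was 0.972 and 0.987, where the remaining 10 arrays had 0.995 or more. By their Y-linked transcripts all acd and p53 embryos were male, but only 1 of 3 wt and 1 of 3 double embryos, so sex differs between the genotypes. Globin and other erythroid transcripts were abundant in every genotype (summed log2 level 15.22 to 15.60), a mark of whole embryos with circulating blood.

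Neural crest cells arise at the border of the neural plate, leave the dorsal neural tube and migrate through the embryo, where they form peripheral neurons and glia, the enteric nervous system, much of the face and all melanocytes outside the eye. Pax3, Foxd3, Tfap2a, Sox10 and Ets1 are transcription factors of crest specification and survival. Melanoblasts, the pigment cell precursors, depend on the transcription factor Mitf, on the receptors Kit and Ednrb with their ligands Kitl and Edn3, and express Dct, an enzyme of melanin synthesis, before pigment is visible. In whole embryos fewer cells of a type and less RNA per cell cannot be told apart, and none of the 9 genes is expressed in the crest alone at this stage.

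Neither acd nor loss of p53 on its own was accompanied by a difference in these genes that passed the test: differences ran from -0.11 to 0.04 in acd against wt and from -0.11 to 0.11 in p53 against wt. With embryo sex as a term in the fit, which can be estimated only from the wt and double embryos, 0 of 9 passed, but values moved. The male embryos of these genotypes were wt replicate 1 and double replicate 1, and the latter stood apart by its correlation. The sex term therefore cannot be told apart from what set double replicate 1 apart. Ets1 moved most: from 0.04 to 0.35 in acd against wt, from 0.06 to 0.37 in p53 against wt, from -0.08 to -0.39 in double against p53 and from -0.13 to -0.74 in the interaction. In acd against wt Sox10 went from -0.05 to 0.15 and Pax3 from -0.08 to 0.14, and in p53 against wt they went to 0.20 and 0.28. The Ednrb differences became -0.22 in acd against wt, -0.21 in p53 against wt, 0.49 in double against p53 and 0.71 in the interaction. In double embryos Ednrb measured higher, Mitf lower and Dct higher, the last in 2 of 3 embryos, and none of these differences passed over all genes either. The other 6 genes had 95% intervals that included no difference in every comparison. Sox10, Pax3, Ets1 and Kit were low in double replicate 1 and within or above the range of the other genotypes in the remaining double embryos. limma was fitted to all genes and adjusted over all of them (Benjamini-Hochberg), and 0 of 9 passed at an adjusted p of 0.05 in any of 6 comparisons. The share of all genes that passed was 0.0148% in acd against wt, 0% in p53 against wt, 0.00741% in double against p53, 0% in double against acd, 0.0148% in double against wt and 0% in the interaction. The interaction is what remains of the difference between double and p53 once that between acd and wt is subtracted. None of the 9 lay entirely above or below wt in acd embryos (7.24% of all genes did so above and 9.86% below). With an unadjusted p under 0.05 the counts were 0 of 9 in acd against wt (1.77% of all genes), 0 of 9 in p53 against wt (0.726%), 2 of 9 in double against p53 (10.7%), 3 of 9 in double against acd (12.6%), 3 of 9 in double against wt (11.1%) and 1 of 9 in the interaction (3.93%).

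**Figure D1:**
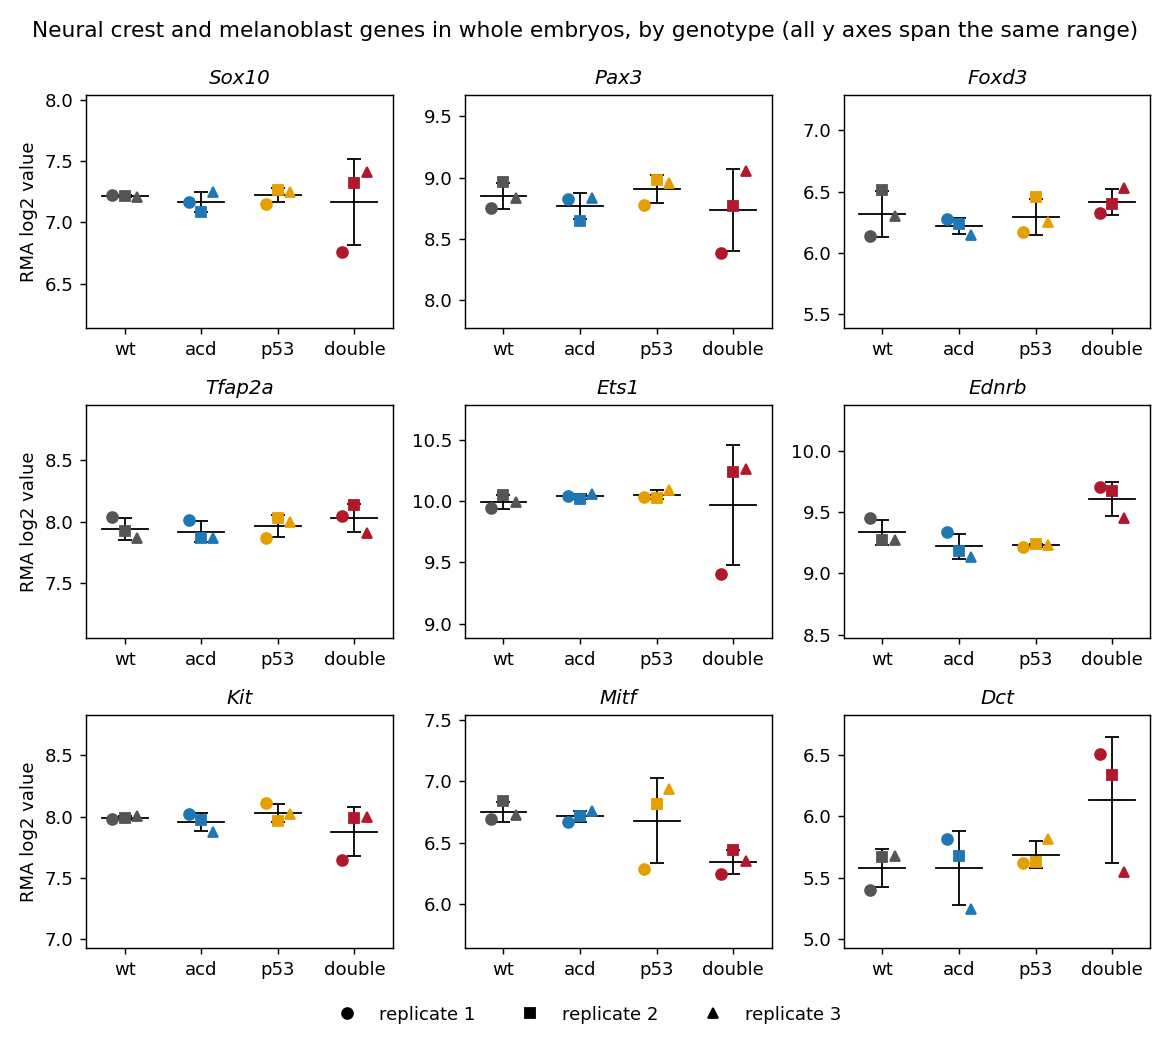
RMA log2 value (y axis, each spanning the same range) of the 9 genes in each embryo, by genotype (x axis), with symbols for replicates 1 to 3, a line for the mean and bars for the SD of 3 embryos. Wt, acd and p53 embryos overlap in most panels, double embryos lie high for Ednrb and low for Mitf, and double replicate 1 lies below every other array for Sox10, Pax3, Ets1, Kit and Mitf.

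Sox10 maintains crest cells as multipotent and later specifies glia and melanoblasts. It measured 7.22, 7.21 and 7.21 in the wt embryos, a spread of 0.01 (SD, n = 3). In acd embryos the values were 7.16, 7.09 and 7.25, and in p53 embryos 7.15, 7.26 and 7.25. The wt, acd and p53 groups overlap, with means of 7.21 ± 0.01, 7.17 ± 0.08 and 7.22 ± 0.06 (SD, n = 3 each). In double embryos Sox10 measured 6.76, 7.32 and 7.41. Replicate 1 was thus the lowest of all 12 arrays and replicates 2 and 3 were the highest, so the double mean of 7.16 ± 0.35 hides a split within the genotype. The difference from wt was -0.05 ± 0.14 (SE; 95% interval -0.35 to 0.25; limma adjusted p = 0.873), and it was 0.15 without double replicate 1. A second Sox10 probe set with a mean of 6.31 did not show the split: it measured 6.40, 6.35 and 6.33 in double embryos and 6.31 to 6.32 in wt. The low value of replicate 1 therefore rests on the probe set used. The third Sox10 probe set had a mean of 4.29 and exceeded the filter, set at each array's 40th percentile, in 0 of 12 arrays.

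Pax3 acts in the neural plate border and dorsal neural tube and also in the dermomyotome, the source of skeletal muscle. It measured 8.76, 8.96 and 8.84 in wt, 8.83, 8.65 and 8.84 in acd and 8.78, 8.99 and 8.96 in p53 embryos. These 3 groups overlap. In double embryos it measured 8.39, 8.77 and 9.06, the first being the lowest and the last the highest of the 12 arrays. All 3 Pax3 probe sets showed this order in the double embryos: the second measured 7.94, 8.39 and 8.77 and the third 7.29, 7.89 and 8.21. The double minus p53 difference was -0.17 ± 0.14 (adjusted p = 0.588), and 0.01 without double replicate 1. In acd embryos Pax3 measured -0.08 ± 0.14 relative to wt. The second probe set gave -0.21 there, with acd values of 8.33 to 8.49 below the wt values of 8.57 to 8.68, and did not pass when every probe set was tested (limma adjusted p = 0.999973). Of all genes, each read from its brightest probe set, 9.86% lay wholly below wt in acd embryos. Markers of dermomyotome and myoblasts, cells that also express Pax3, went both ways: in double against p53, 4 of the 8 tested measured higher and 4 lower. In double replicate 1 they averaged -0.29 relative to wt, with Meox1 at 7.02 (7.89 to 8.23 in wt), Met at 6.36 (7.14 to 7.22) and Pax7 at 6.49 (7.38 to 7.54) low and Myog at 8.41 (7.72 to 7.86) high. In replicates 2 and 3 they averaged 0.03 each. Their summed log2 level was 10.62 in double replicate 1, 10.81 in replicates 2 and 3 and 10.71 to 10.79 in wt embryos. In acd embryos 7 of these 8 genes measured lower than in wt, with a median of -0.08. Their part in the Pax3 values was not tested.

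Ets1 has a role in cranial and cardiac crest and is also expressed in endothelium and blood cells. Across wt, acd and p53 embryos it varied little, from 9.94 to 10.09. In double embryos it measured 9.40, 10.24 and 10.26, so replicate 1 lay below and replicates 2 and 3 above all 9 arrays of the other genotypes. The difference from wt was -0.02 ± 0.18 (95% interval -0.41 to 0.36; adjusted p = 0.96) over the 3 double embryos and 0.26 ± 0.05 without replicate 1 (adjusted p = 0.361). A second bright probe set, with a mean of 9.58, measured 9.18, 9.56 and 9.85 against 9.52 to 9.60 in wt. It placed replicate 1 low and replicate 3 high, and replicate 2 within the wt range. The remaining 2 Ets1 probe sets had means of 5.09 and 4.55, below the array medians. The 9 endothelial markers averaged 0.13, -0.18 and 0.01 relative to wt in double replicates 1 to 3, with a summed log2 level of 10.95 to 11.31 in double and 11.09 to 11.12 in wt. The members differed in double replicate 1: Kdr measured 8.67 (8.91 to 9.01 in wt), Cdh5 7.93 (8.08 to 8.13) and Emcn 9.85 (8.93 to 9.14). Their part in the Ets1 values was not tested.

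Foxd3, an early crest factor that keeps crest cells undifferentiated and restrains the pigment fate, was read by 1 probe set. Its values were 6.14, 6.51 and 6.30 in wt embryos. The acd embryos had 6.28, 6.24 and 6.15, the p53 embryos 6.17, 6.46 and 6.25 and the double embryos 6.32, 6.40 and 6.53. The acd and double values did not overlap, a pattern that 4.41% of all genes share in this direction. Double minus acd was 0.20 ± 0.11 (95% interval -0.04 to 0.43; adjusted p = 0.444). The wt embryos span nearly the range of the other genotypes together. Against wt the double difference was 0.10 ± 0.11 (adjusted p = 0.674).

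Tfap2a, the AP-2 alpha factor of the neural plate border and of surface ectoderm, measured 8.04, 7.92 and 7.86 in the wt embryos. The acd embryos had 8.02, 7.87 and 7.87, the p53 embryos 7.87, 8.03 and 7.997 and the double embryos 8.05, 8.14 and 7.91, giving a double mean of 8.03 ± 0.11 and a wt mean of 7.94 ± 0.09 (SD, n = 3 each). On this probe set all groups overlap, and no difference exceeded 0.11 ± 0.09 in size (double minus acd, adjusted p = 0.564). A second probe set with a mean of 7.06 gave 0.10 in that comparison, and a dim one with a mean of 4.92 gave 0.18. On the dim one acd (4.75 to 4.90) and p53 values (4.71 to 4.91) lay below the wt values of 5.00 to 5.06. These differences were -0.20 and -0.23, and neither passed when every probe set was tested (limma adjusted p = 0.999973 and 0.999969). Of all genes, 9.86% lay wholly below wt in acd and 3.36% in p53 embryos. Surface ectoderm markers, all 8 tested, had a summed log2 level of 11.66 to 11.73 in wt. The same sum was 11.72 to 12.04 in acd, 11.49 to 11.87 in p53 and 11.45 to 11.75 in double embryos.

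Among the receptors, Ednrb showed the clearest separation of the double embryos. It encodes the endothelin receptor B, which binds Edn3 and is needed for enteric neurons and melanocytes; neural progenitors and vessels express it too. Ednrb measured 9.45, 9.27 and 9.28 in wt and 9.34, 9.19 and 9.14 in acd embryos. It measured 9.22, 9.24 and 9.23 in p53 and 9.71, 9.67 and 9.45 in double embryos. Every double embryo lay above every acd and every p53 embryo, and double replicate 3 lay just below wt replicate 1. In order of the means the genotypes were acd (9.22 ± 0.10), p53 (9.23 ± 0.01), wt (9.33 ± 0.10) and double (9.61 ± 0.14). The acd and p53 means did not differ beyond their spread.

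The double minus p53 difference of Ednrb was 0.38 ± 0.09 (SE), a ratio of 1.30 (95% interval 0.18 to 0.58 in log2; unadjusted p = 0.0013, adjusted p = 0.463 by limma). Groups that did not overlap with double higher were found for 3.29% of all genes in this comparison and for 4.41% in double against acd. Double minus acd was 0.39 ± 0.09 (adjusted p = 0.371) and double minus wt 0.27 ± 0.09 (adjusted p = 0.447). The interaction was 0.49 ± 0.13 (95% interval 0.21 to 0.77; unadjusted p = 0.00236, adjusted p = 0.879), from an acd minus wt difference of -0.11 ± 0.09 and a double minus p53 difference of 0.38. Loss of p53 alone gave -0.11 ± 0.09, with all 3 p53 embryos below all wt embryos, as for 3.36% of all genes, while 3.42% lay above. These comparisons share arrays and are not independent of each other.

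A second Ednrb probe set separated the double embryos further. Its values were 8.16, 8.32 and 8.55 in wt and 8.67, 8.46 and 8.36 in acd embryos. They were 8.44, 8.20 and 8.25 in p53 and 9.13, 9.01 and 8.78 in double embryos, so that every double embryo lay above all 9 others. How many probe sets share that pattern was not counted. Double minus p53 was 0.68 ± 0.13 and double minus wt 0.63 ± 0.13 on this probe set. In a fit to all 24152 probe sets that passed the filter, chosen after the data were seen, these had adjusted p-values of 0.529 and 0.435. The third, dimmer probe set measured 6.42 in double replicate 1 and 5.61 and 5.58 in replicates 2 and 3, the latter inside the wt range of 5.57 to 5.81. Its p53 values were 5.76, 4.89 and 5.92, so double replicates 2 and 3 lay below p53 replicates 1 and 3.

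The size of the Ednrb difference varied with the double embryos included. Relative to p53 it was 0.46 ± 0.09 without double replicate 3 (adjusted p = 0.00861; 13% of all genes passed there, 13.9% in double against acd, 12.2% in double against wt and 3.25% in the interaction, where Ednrb passed as well), 0.33 without replicate 1 and 0.22 for replicate 3 alone, in a fit that assumes the lone embryo varies like the other genotypes. In double replicates 1 and 2 the 12 tested macrophage markers averaged 1.31 and 0.90 above wt and the 6 tested interferon response genes 2.85 and 2.61, against -0.17 and 0.29 in replicate 3. The summed log2 level of the 13 macrophage markers ran from 9.42 to 11.24 in double, 9.59 to 9.78 in wt, 9.38 to 9.74 in acd and 9.45 to 9.82 in p53 embryos. That of the 11 interferon genes ran from 9.08 to 12.49 in double, 8.76 to 8.82 in wt, 8.89 to 8.98 in acd and 8.79 to 8.91 in p53 embryos. Their part in the Ednrb, Dct and Mitf values was not tested.

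The ligands of the receptors, Edn3 and Kitl, were singled out once their values were known. Edn3 ranged from 6.66 to 6.94 in wt, from 6.76 to 6.87 in acd and from 6.45 to 7.52 in p53 embryos. In double embryos it was 7.62, 7.22 and 7.07. All double embryos lay above all wt embryos, as for 4.96% of all genes (0.55 ± 0.22, adjusted p = 0.447), while p53 replicate 1 lay between double replicates 1 and 2. Kitl measured 9.03 and 9.14 in double replicates 1 and 2, and between 9.38 and 9.69 in the other 10 arrays. Its double minus wt difference was -0.23 ± 0.14 (adjusted p = 0.504).

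Kit, the receptor for Kitl, is carried by melanoblasts, blood progenitors and germ cells. It measured 7.98 to 8.005 in wt, 7.88 to 8.02 in acd and 7.97 to 8.11 in p53 embryos. In double embryos it measured 7.65, 7.99 and 7.9998, so replicate 1 alone lay below the other arrays. Double minus p53 was -0.15 ± 0.10 (95% interval -0.37 to 0.06; adjusted p = 0.507) and -0.04 without replicate 1. The second Kit probe set had a mean of 4.95, below the array medians. Blood progenitor and mast cell markers, 7 of 9 tested, averaged 0.40 above wt in double replicate 1 and ranged from 10.65 to 11.31 in summed log2 level in double and from 10.75 to 10.91 in wt embryos. Erythroid markers averaged 0.55 above wt in the same embryo. Their part in the Kit values was not tested. Of the germ cell markers 1 of 6 was bright enough to be tested.

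Double replicate 1 was the lowest of the 12 arrays for 5 of the 9 genes (Sox10, Pax3, Ets1, Kit and Mitf) and the highest for 2 (Ednrb and Dct). Over all tested genes that array was the lowest for 30.4% and the highest for 32.6%. Double replicate 3, which did not stand apart by its correlation, was the highest for 4 of the 9 (Sox10, Pax3, Foxd3 and Ets1) against 6.07% of all genes, and the lowest for 0 (8.62%). Double replicate 2 was the highest for Tfap2a (13.8%) and the lowest for 0 (14.9%). These were counted after their values were seen, and the shares have no test.

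**Figure D2:**
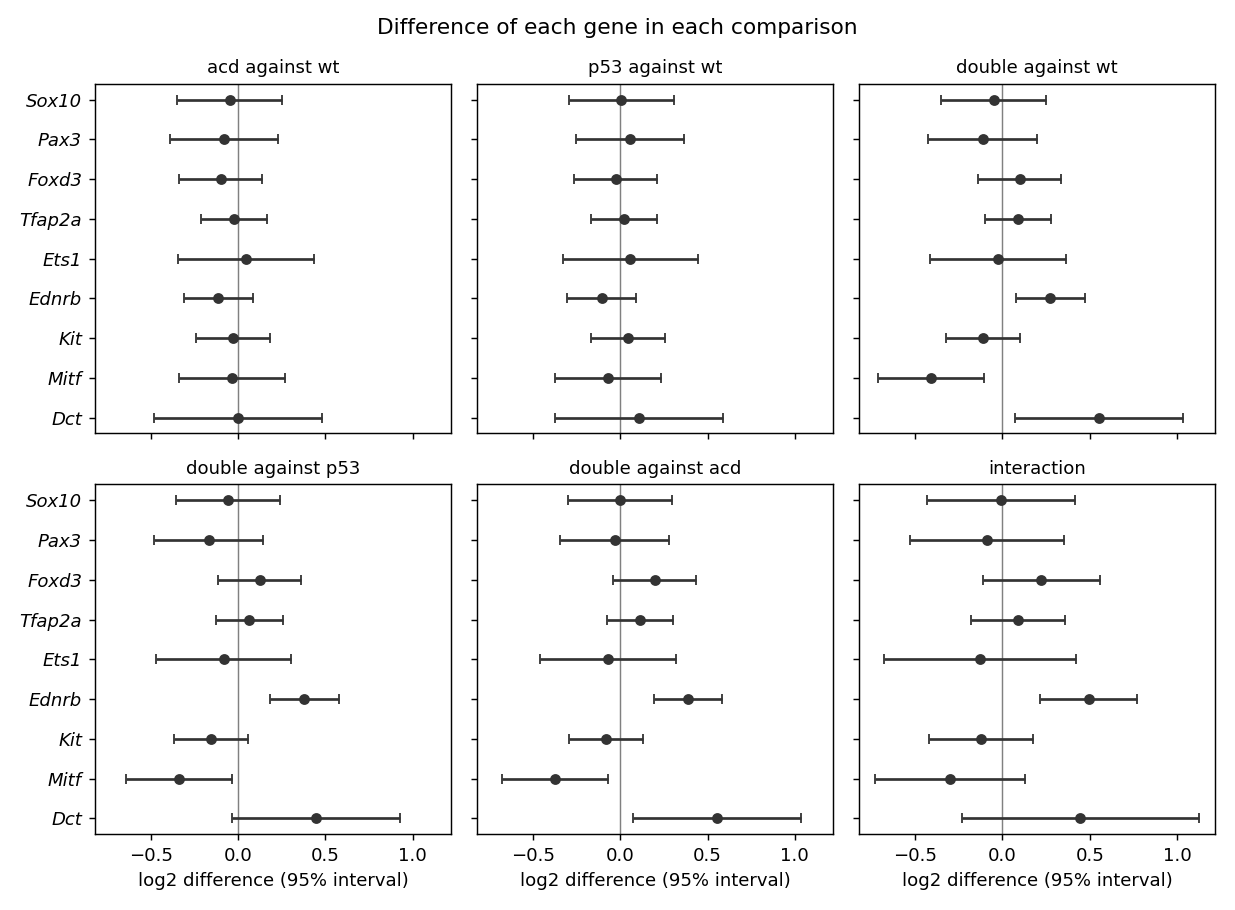
Log2 difference (x axis) of the 9 genes (y axis) in 6 comparisons, with points for the estimate of the fit to 12 arrays and bars for its 95% interval, not adjusted for the number of genes. Intervals that leave out 0 are those of Ednrb in 4 panels, Mitf in 3 and Dct in 2, all in comparisons that include double embryos.

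Mitf, the basic helix-loop-helix factor that commits crest cells to the pigment fate and also acts in the retinal pigment epithelium, was low in all double embryos. Its values were 6.69, 6.84 and 6.72 in wt and 6.67, 6.71 and 6.76 in acd embryos. They were 6.29, 6.82 and 6.94 in p53 and 6.24, 6.44 and 6.35 in double embryos. The double embryos lay below every wt and every acd embryo, patterns shared by 8.24% and 6.9% of all genes, and overlapped p53 through p53 replicate 1. The double mean was 6.34 ± 0.10, below 6.68 ± 0.35 in p53, 6.71 ± 0.04 in acd and 6.75 ± 0.08 in wt (SD, n = 3 each).

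Double minus wt was -0.41 ± 0.14, a ratio of 0.754 (95% interval -0.71 to -0.11 in log2; unadjusted p = 0.0126, adjusted p = 0.447 by limma). Double minus acd was -0.37 ± 0.14 (adjusted p = 0.371) and double minus p53 -0.34 ± 0.14 (adjusted p = 0.463). Without p53 replicate 1 double minus p53 was -0.53 and p53 minus wt went from -0.07 to 0.12. Unlike Ednrb and Dct, Mitf measured about as low in double replicate 3 as in the embryos that stood apart: replicate 3 alone gave -0.40 relative to wt. The interaction was -0.30 ± 0.20 (95% interval -0.73 to 0.13). A second Mitf probe set had a mean of 4.004, exceeded the filter in 0 of 12 arrays and gave -0.05 in double against wt. The difference therefore rests on 1 probe set.

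Dct encodes dopachrome tautomerase and marks migrating melanoblasts, and it is also expressed in the retinal pigment epithelium and telencephalon. Its single probe set lay close to the array medians, where background can compress differences. Dct measured 5.40, 5.67 and 5.67 in wt and 5.82, 5.67 and 5.24 in acd embryos. The p53 embryos had 5.62, 5.63 and 5.81, and the double embryos 6.51, 6.34 and 5.55. Double replicates 1 and 2 lay above the other 10 arrays and replicate 3 inside their range, so the groups overlap. Double minus wt was 0.55 ± 0.22 (unadjusted p = 0.0278, adjusted p = 0.447 by limma) and double minus p53 0.45 ± 0.22 (adjusted p = 0.466). Without double replicate 3 the difference from p53 was 0.74 ± 0.16 and passed (adjusted p = 0.0145, with 13% of all genes passing), and replicate 3 alone gave -0.14. Arrays were also weighted by their scatter around the fit, without a separate measure of array quality. With these weights Ednrb and Dct passed in double against acd (13.1% of all genes) and in double against wt (13.4%). The weights of double replicates 1 to 3 were 0.07, 1.61 and 0.25, so the double group there was mostly replicate 2.

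The promoters are shown because Mitf is known to act on pigment genes through E-box sequences, here CATGTG and its variant CACGTG, and Mitf and Dct measured in opposite directions in double replicates 1 and 2. Sequences are the 250 bases before the start site from RefSeq (GRCm38.p6), written 5′ to 3′ on the strand of the gene, with matches on either strand to these E-boxes, or to the Sox-type motif ACAAAG or its variant ACAATG, in capitals. The Dct stretch is chr14:118052247-118052496 on the minus strand, that of Mitf is chr6:97991533-97991782 on the plus strand, before the furthest downstream of 3 start sites in the table, and that of Ednrb is chr14:103843702-103843951 on the minus strand.
Dct: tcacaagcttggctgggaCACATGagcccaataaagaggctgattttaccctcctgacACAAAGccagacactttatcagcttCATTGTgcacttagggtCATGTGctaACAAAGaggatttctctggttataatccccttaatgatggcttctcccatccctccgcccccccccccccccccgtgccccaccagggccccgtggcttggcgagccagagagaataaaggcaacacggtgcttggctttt
Mitf: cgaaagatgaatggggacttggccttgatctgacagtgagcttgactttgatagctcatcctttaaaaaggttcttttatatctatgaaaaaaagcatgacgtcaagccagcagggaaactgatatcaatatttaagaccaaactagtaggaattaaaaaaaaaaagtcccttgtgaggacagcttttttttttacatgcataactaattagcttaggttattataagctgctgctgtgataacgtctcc
Ednrb: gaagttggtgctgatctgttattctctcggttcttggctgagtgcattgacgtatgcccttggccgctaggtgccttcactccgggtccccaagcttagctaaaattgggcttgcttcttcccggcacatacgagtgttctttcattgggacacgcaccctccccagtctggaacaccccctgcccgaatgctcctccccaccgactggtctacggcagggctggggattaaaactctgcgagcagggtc

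The Dct promoter held 5 matches: CATGTG at 150 to 145 bases before the start and, as CACATG on the other strand, at 232 to 227, ACAAAG at 192 to 187 and at 141 to 136, and ACAATG, as CATTGT, at 167 to 162. No 2 of these overlap. The Mitf and Ednrb stretches held 0 matches. Of 10 promoters listed for 6 of the 9 genes, 1 other held a match, CACGTG in Foxd3 at 217 to 212 bases before its start. Over 32851 promoters of the same length, 12.3% held CATGTG, 6.02% CACGTG, 16.5% ACAAAG and 10.7% ACAATG on either strand. CACGTG reads the same on both strands. A match describes the letters of the reference and does not show that a factor binds there.

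Other pigment genes went both ways. Of 15 pigment cell genes 8 were bright enough to be tested, and in double against p53, 4 measured higher and 4 lower, 0 passing, with a median of 0.00 against -0.01 over all genes. Against acd 3 measured higher and 5 lower, and against wt 4 and 4. Trpm1, a melanocyte channel gene known as a target of Mitf, measured 5.57, 5.30 and 5.45 in double embryos and 5.66 to 5.94 in the other 9, close to the array medians. It was below every p53, acd and wt embryo (double minus p53 -0.30 ± 0.09, adjusted p = 0.463), patterns shared by 5.01%, 6.9% and 8.24% of all genes. Bcl2, a survival factor of melanocytes among other cells, measured 7.76, 8.32 and 8.46 in double embryos against 8.46 to 8.61 in p53 (-0.36 ± 0.14, adjusted p = 0.463; -0.15 without double replicate 1). Others were picked after their values were seen. Rab27a, which moves melanosomes, measured 6.18, 6.26 and 5.38 in double embryos and 5.63 to 5.82 in the other 9. Like Dct it was high in double replicates 1 and 2, but its replicate 3 lay below the other 9. Gpnmb, a melanosome and macrophage protein close to the array medians, measured 5.23, 5.40 and 5.27 in double embryos, above every acd and every wt embryo (double minus acd 0.27 ± 0.10, adjusted p = 0.373) but not every p53 embryo. Of all genes, 4.41% lay wholly above acd and 4.96% wholly above wt in double embryos. Pmel, a melanosome protein, measured 6.90, 6.74 and 6.23 in double embryos and 6.05 to 6.80 in the other 9. The pigment enzymes Tyr and Tyrp1 and the melanosome gene Mlana failed the filter, with values of 3.23 to 4.27.

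Markers of the eye and retinal pigment epithelium, cells that also express Mitf and Dct, had 6 of 8 measured genes tested. They averaged -0.16, 0.03 and -0.26 relative to wt in double replicates 1 to 3, with a summed log2 level of 10.02 to 10.22 in double embryos. In wt that sum was 10.15 to 10.23, in acd 10.19 to 10.21 and in p53 embryos 10.16 to 10.24. Six6, picked after its values were seen, measured 5.00, 5.30 and 4.96 in double embryos. It was 5.51 to 5.72 in wt, 5.58 to 6.25 in acd and 5.25, 5.88 and 6.05 in p53 embryos. Of all genes, 8.24% lay wholly below wt and 6.9% wholly below acd in double embryos. In double against wt 2 of the 6 tested markers measured higher and 4 lower. Their part in the Mitf values was not tested.

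**Figure D3:**
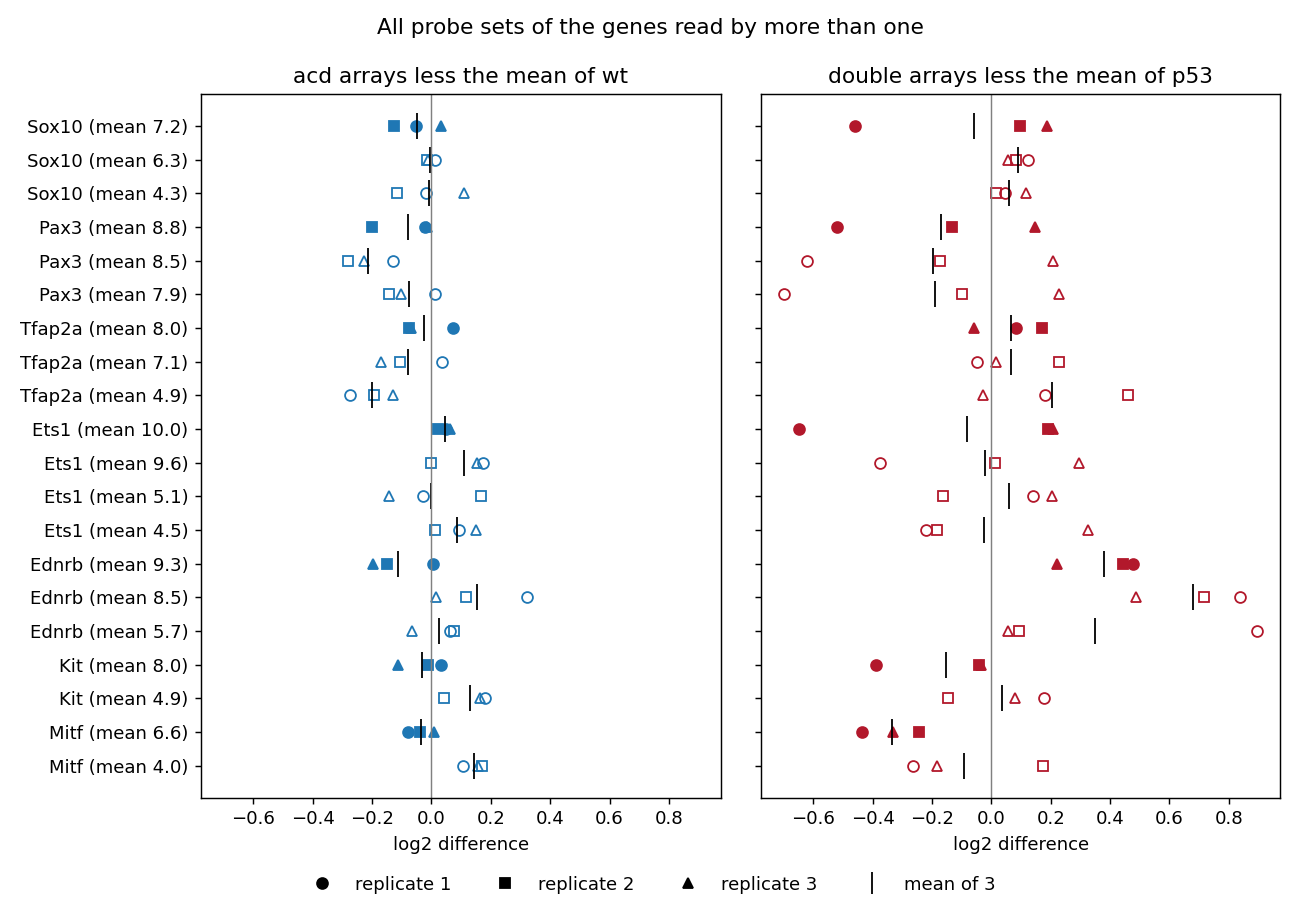
Log2 difference (x axis) of each acd embryo from the wt mean (left) and of each double embryo from the p53 mean (right), for every probe set of the 7 genes read by more than 1, labelled with gene and mean level. Filled symbols are the probe set used for the gene, open symbols the others, symbols stand for replicates 1 to 3 and a bar for their mean; all 3 Ednrb probe sets have positive means on the right, and all 3 Pax3 probe sets place double replicate 1 lowest.

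The probe sets of a gene varied in how far they bear out the values used. In all, 3 of 22 were too dim to be tested: 1 of Sox10, 1 of Mitf and 1 of Ets1. For Ednrb the 3 probe sets gave 0.38, 0.68 and 0.35 in double against p53. The last had an SE of 0.26, with double replicate 1 high and p53 replicate 2 low. For Pax3 the 3 probe sets gave -0.17, -0.20 and -0.19 in the same comparison, and for Tfap2a 0.07, 0.07 and 0.21. Sox10 gave -0.06 from the probe set used and 0.09 from the other bright one, and Kit -0.15 and 0.04. In the fit to every probe set 0 of 19 passed in any comparison, where 0 to 2 of 24152 passed in all.

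A wider set of 100 crest genes in 7 lists gave the same count: 92 were measured, 82 tested, and 0 passed in any of the 6 comparisons. In acd against wt the 11 tested autonomic genes had 2 higher and 9 lower (median -0.08), the 7 glial and enteric genes 0 higher and 7 lower (-0.09), the 11 genes of crest-derived mesenchyme 1 higher and 10 lower (-0.05) and the 9 neural crest and melanoblast genes 1 higher and 8 lower (-0.04). The 11 border genes had 5 higher and 6 lower, the 17 specification genes 7 and 10, the 8 pigment genes 3 and 5 and the 17 ligands and signals 10 and 7. The acd embryos were not alike: relative to wt the glial and enteric list averaged -0.001, -0.06 and -0.21 in acd replicates 1 to 3, the autonomic list 0.02, -0.16 and -0.08, the mesenchyme list 0.01, -0.07 and -0.15 and the 9 genes 0.02, -0.06 and -0.09. The median over all genes was -0.01, with 6368 higher and 7133 lower. The smallest p-values belonged to Ngfr, the p75 receptor of migrating crest (-0.28 ± 0.12, unadjusted p = 0.0435, adjusted p = 0.999972 by limma), and Adamts20, a protease needed for melanoblast spread (-0.24 ± 0.11, adjusted p = 0.999972). Ngfr measured 8.46, 8.21 and 8.12 in acd embryos against 8.47 to 8.64 in wt, lower in 3 of 3. Adamts20 measured 6.82, 6.88 and 7.01 against 6.98 to 7.30, and the groups overlap. Edn1, an endothelin that patterns the jaw crest, measured 0.21 ± 0.11 (adjusted p = 0.999972), with acd values of 5.96 to 6.13 above wt values of 5.75 to 5.94. In this comparison 9.86% of all genes lay wholly below wt, as Ngfr did, and 7.24% wholly above, as Edn1 did.

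The neural plate border list, 11 tested, had medians of -0.01 in acd against wt, 0.06 in p53 against wt and -0.10 in double against p53. The crest specification and emigration list, 17 tested, had -0.01, 0.04 and -0.07, and the 17 ligands and signals 0.01, -0.01 and 0.05. In p53 against wt the border list had 11 genes higher and 0 lower, with 6489 higher and 7012 lower over all genes. Relative to the wt mean the list averaged 0.007, 0.08 and 0.12 in p53 replicates 1 to 3. The wt embryos ran from -0.03 to 0.02, so p53 replicate 1 lay within their range. In double against p53 the border list had 1 gene higher and 10 lower, which rested on double replicate 1: the list averaged -0.38, 0.09 and 0.01 relative to wt in double replicates 1 to 3, and without replicate 1 it had 5 higher and 6 lower. The specification list averaged -0.28, 0.07 and 0.05, and went from 5 higher and 12 lower to 10 higher and 7 lower. The glial and enteric list had 6 higher and 1 lower, with a median of 0.21 against -0.01 over all genes, and the same counts without replicate 1. Relative to wt that list averaged 0.29, 0.44 and -0.05 in double replicates 1 to 3, so replicate 3 did not share the rise. Fabp7, a lipid-binding protein of radial and crest glia, measured 12.50 and 12.09 in double replicates 1 and 2 and 11.17 in replicate 3, against 10.85 to 11.44 in the other 9 (double minus p53 0.66 ± 0.26, adjusted p = 0.463; 0.37 without double replicate 1). Pou3f1, a factor of Schwann cells, measured 7.51, 7.95 and 7.09, against 6.96 to 7.32 (0.44 ± 0.17, adjusted p = 0.463). Both were high in the embryos with high macrophage and interferon markers and within the range of the others in replicate 3. Which cells of the whole embryo carried the Fabp7 and Pou3f1 transcripts, in the crest or outside it, was not tested.

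Of the border genes, Prdm1 measured 4.85, 5.46 and 6.13 in double and 5.86 to 6.31 in p53 embryos (-0.55 ± 0.25, adjusted p = 0.463). Pax7 measured 6.49, 7.54 and 7.29 in double and 7.42 to 7.69 in p53 embryos (-0.44 ± 0.20, adjusted p = 0.466). Without double replicate 1 the differences were -0.23 for Prdm1 and -0.13 for Pax7. Crabp1, a retinoic acid binding protein of migrating crest, measured 12.51, 12.63 and 12.89 in double and 12.86 to 12.94 in p53 embryos (-0.24 ± 0.09, adjusted p = 0.463), and Sox8 -0.35 ± 0.17 (adjusted p = 0.466). Fgf8, a signal of the midbrain border, face and tail, measured 7.19, 6.82 and 7.20 in double embryos, below the 7.35 to 7.51 of p53 (-0.34 ± 0.12, adjusted p = 0.463). Of all genes, 5.01% lay wholly below p53 in double embryos. Wnt6 measured 0.30 ± 0.15, and 0.08 without double replicate 1. Of mesenchyme and autonomic genes the smallest p-values were those of Foxc2 (-0.22), Hand2 (-0.15), Hand1 (-0.19) and Artn (-0.15), all with an adjusted p of 0.473 to 0.506. Without double replicate 1 these were -0.05, -0.06, -0.09 and -0.22, Crabp1 was -0.15 and Sox8 -0.23. In acd against wt the others named by the same rule were Pax7 (-0.25), Dlx5 (-0.12), Foxc2 (-0.18), Pdgfra (-0.14), Th (-0.15), Insm1 (-0.17), Pou3f1 (-0.16), Gdnf (-0.09), Bcl2 (-0.15), Rab38 (0.10) and Wnt3a (0.15), all with an adjusted p of 0.999972.

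**Figure D4:**
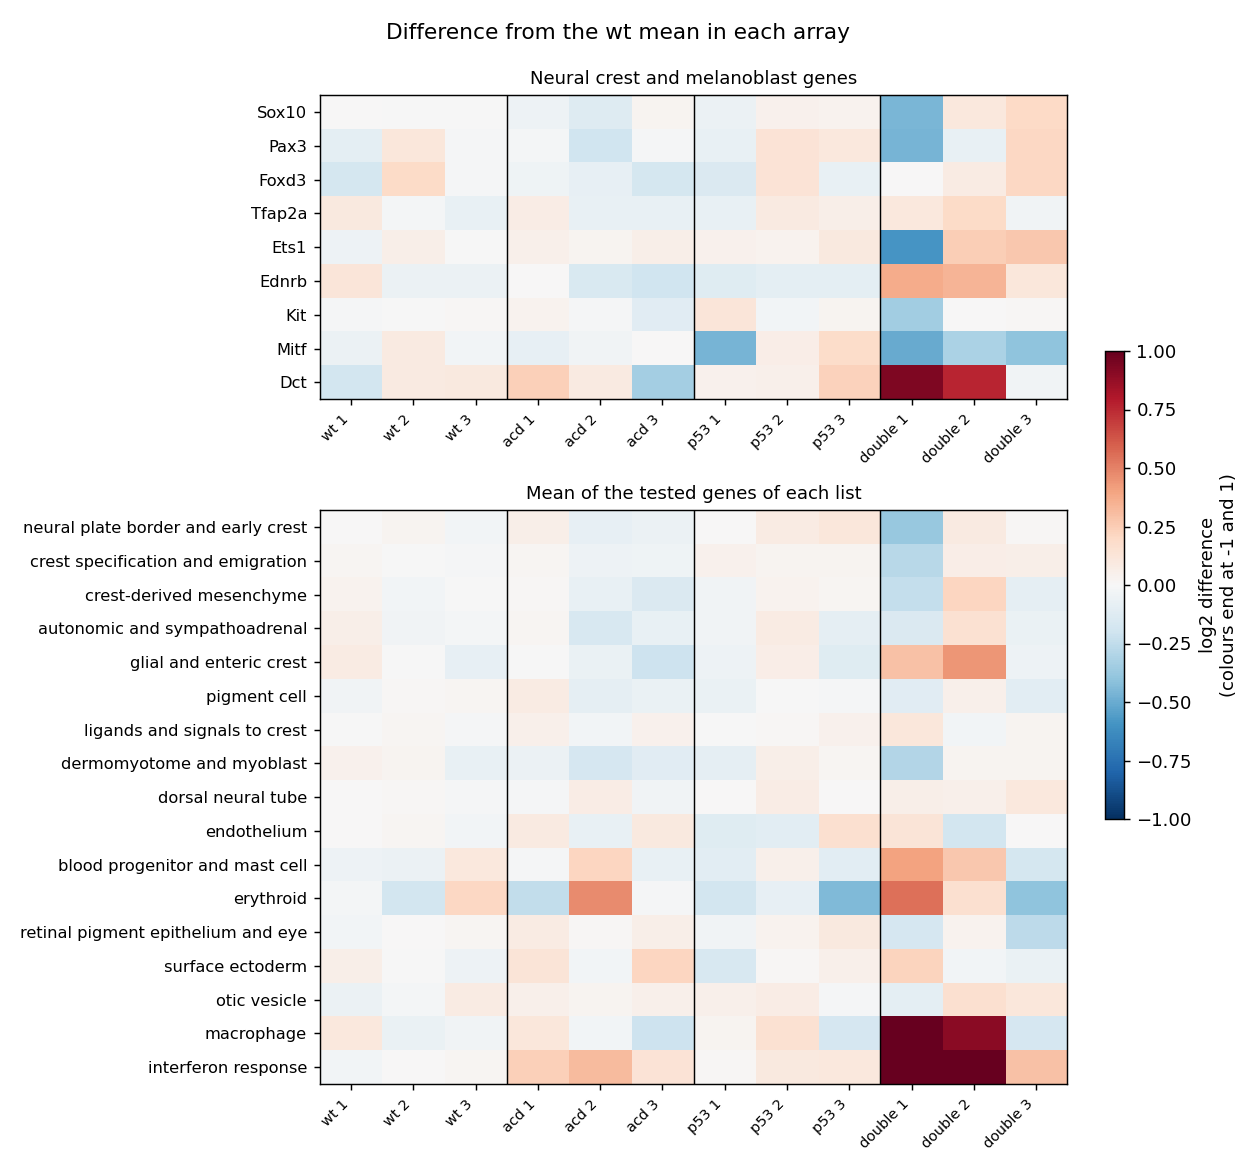
Log2 difference from the wt mean (colour, ending at -1 and 1) in each of 12 arrays (columns) for the 9 genes (top) and for the mean of the tested genes of each list of crest and other cell type genes (bottom). Double replicates 1 and 2 are the strongest colours for macrophage and interferon genes, and Dct and Ednrb are high in the same arrays, whereas Mitf is low in all 3 double arrays.

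The profiles of the 9 genes over the 12 arrays fell into different patterns, given here as descriptions over arrays that share their genotypes. Sox10 and Ets1 had a Pearson correlation of 0.94, Sox10 and Pax3 of 0.88 and Pax3 and Ets1 of 0.80. Leaving out double replicates 1 and 2 these were 0.73, 0.84 and 0.68 over 10 arrays. Ednrb and Dct correlated at 0.77 over 12 arrays and at -0.0004 over the 10. Kit and Ets1 correlated at 0.80 and 0.04. Mitf followed none of the other 8 closely, with 0.47 for Pax3 as its highest value and -0.63 for Ednrb as its lowest.

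Over all tested genes the profiles most like Sox10 were those of Simc1 (0.96), Apbb2 (0.96) and Rfx4 (0.96), and those most like Pax3 were Amph (0.96), Prkd1 (0.94) and Tedc1 (0.94). Ednrb was most like C1qtnf3 (0.95), Ldb2 (0.94) and Pdp1 (0.93), Mitf most like Mb21d2 (0.92), Tbc1d22a (0.91) and Rrn3 (0.89), and Dct most like Cacfd1 (0.96), Thra (0.95) and Selenbp1 (0.95). Without double replicates 1 and 2 the values for the Mitf neighbours were 0.92, 0.86 and 0.90, and for the Dct neighbours 0.77, 0.77 and 0.73. Kit was most like Trim33, Zfp369 and Terf2 (0.97 each), Ets1 like Arid4a, Rrbp1 and Lamc1 (0.96 to 0.97), Tfap2a like Vasn, Ppp2r5b and Zc4h2 (0.91 to 0.94) and Foxd3 like Jpx, Phactr1 and Fam50a (0.74 to 0.78). Without double replicates 1 and 2 the Ets1 neighbours had 0.80, 0.76 and 0.68. The Sox10 neighbours then had 0.94, 0.81 and 0.86 and the Ednrb neighbours 0.88, 0.77 and 0.89. Those of Kit had 0.89 to 0.95, of Pax3 0.88 to 0.90, of Tfap2a 0.84 to 0.90 and of Foxd3 0.74 to 0.77.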

How the data were processed

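The authors normalized the scanner files of 12 Affymetrix 3′ expression arrays with justRMA and chose genes in BRB-ArrayTools (4.4.0), as the design text of the series states; the deposited values are log2 expression values, used unchanged. Per the labels, 250 ng RNA was labelled. No scanner files or scan dates were used here, so batches could not be checked, and the number of arrays limits the precision. Of 45101 probe sets, 34945 had 1 gene symbol in the platform annotation; 64 controls were left out. The 9 symbols matched RefSeq by gene identifier. A gene was tested if its brightest probe set exceeded the 40th percentile of all probe sets in 3 or more arrays. limma 3.58.1 (R 4.3.3) fitted a mean per genotype to all 12 arrays (8 residual degrees of freedom, moderated variance, two-sided tests, Benjamini-Hochberg over all tested genes, threshold 0.05). The test was checked on simulated data.

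Named are the 9 genes, the genes of the 7 lists that passed or had the 2 smallest p-values in acd against wt or double against p53, and the 3 most correlated genes of each; other names were chosen after their values were seen. The genes, lists and alternatives were chosen with earlier results of these data known. Replicate numbers are shared between genotypes, but the labels tie them to no litter or batch. Alternatives comprised a block for the replicate number, other filters, probe set rules, normalizations, variance models, thresholds and subsets of arrays, embryo sex as a term, and leaving out each array.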

Additional observations from a re-analysis of the deposited data

How the results depend on the processing

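In the fit to all 12 arrays 0 of the 9 genes passed in any comparison, and this held under every alternative run except leaving out double replicate 3 and weighting the arrays. Without double replicate 3, 2 genes (Ednrb and Dct) passed in double against p53, in double against acd and in double against wt, and 1 (Ednrb) in the interaction, so that over the fits that leave out 1 array the counts ran from 0 to 2, and from 0 to 1 in the interaction; 13%, 13.9%, 12.2% and 3.25% of all genes passed there. With array weights, which gave double replicates 1 to 3 weights of 0.07, 1.61 and 0.25, 2 genes (Ednrb and Dct) passed in double against acd and 2 in double against wt, with 13.1% and 13.4% of all genes. With the replicate number as a block (replicate block), 0 genes passed in every comparison. Deviations of arrays with the same number correlated at a median of 0.04 (-0.23 to 0.39 over 18 pairs), against 0.00 for different numbers, so the numbers were not taken to pair the embryos. Dct could not be tested under the 60th percentile filter. Of 54 differences, 17 kept their sign in all settings, among them those of Ednrb in every comparison but acd against wt and of Mitf in every comparison but acd against wt and p53 against wt; 37 changed sign in at least 1, and no gene passed in a setting where its sign had changed. List counts without double or acd replicate 1 were added after seeing the data. The signs of Sox10, Pax3 and Ets1 in double embryos turned without replicate 1.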
